A study of Mus musculus with 36 samples.

Results

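The libraries described here measured the RNA of mouse embryonic stem cells carrying LiTEC, taken at the end of 30 min of blue light. They were chosen by their group labels: 3 lit and 3 dark LiTEC libraries at 0 h, or 6 of the 36 libraries of the series. The lit LiTEC cells had stood on a blue LED panel, at 3.24 mW/cm2 in the treatment protocol and 3.42 mW/cm2 in the design text, while the dark LiTEC cells had not. Both groups, like the wild-type (WT) cells used below as a second reference, had been kept in serum-free medium with LIF and inhibitors of MEK and GSK3β, and had been given 2 µg/ml doxycycline for 2 days. LiTEC is the name of a construct put into these cells by a study that targets condensates with light, and the labels name neither its parts nor a clone. The design text asks what LiTEC does to transcription with and without light.

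The 6 libraries held 11132970 to 18767689 counts, and lit replicate 2 was the shallowest of all 36. The 10 markers of naive embryonic stem cells summed to 3000 to 3950 CPM (counts per 1000000, on TMM-scaled library sizes) in lit LiTEC cells and 3070 to 4160 CPM in dark LiTEC cells. The summed fibroblast and feeder markers reached 6.37 CPM in lit LiTEC cells and 4.71 CPM in dark LiTEC cells, and Dcn and Lum of that list had no count in the 6 libraries. Gm26917, a locus known to overlap ribosomal RNA sequence, took 16.3%, 10.1% and 12% of the counts in lit LiTEC replicates 1 to 3, against 10.3%, 8.98% and 10.4% in dark LiTEC replicates 1 to 3, so lit replicate 1 stood apart. Replicate 1 of every group was in batch 1 and replicates 2 and 3 in batch 2. The labels do not say that replicates were separate cultures, so the p-values below rest on a spread among libraries that may be technical.

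Heat shock genes are driven by heat shock factors, which bind repeats of the letters GAA in alternating orientation near the start of chaperone genes when unfolded protein accumulates. Immediate early genes need no new protein to be switched on and are the first to follow growth factor and stress kinases. Host genes of small nucleolar RNAs (snoRNAs) are spliced, their introns are cut down to snoRNAs, and many of the spliced non-coding remainders are short-lived because translation of their small reading frames sends them to nonsense-mediated decay. Their levels therefore follow both synthesis and decay closely.

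The promoters of 4 heat-inducible genes that rose here are shown first, to set the letters that heat shock factors read beside the genes' values. The 250 bases before the RefSeq start (GRCm38.p6) are given 5′ to 3′ on the gene's strand, with the 8-letter pair of GAA units (GAANNTTC or TTCNNGAA) in capitals.
Hspa1a (chr17:34972157-34972406, - strand): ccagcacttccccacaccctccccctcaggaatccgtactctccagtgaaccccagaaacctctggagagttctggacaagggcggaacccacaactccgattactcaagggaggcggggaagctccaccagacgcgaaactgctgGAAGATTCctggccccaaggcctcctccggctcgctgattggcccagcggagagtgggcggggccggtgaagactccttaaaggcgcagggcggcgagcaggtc
Hspa1b (chr17:34959239-34959488, - strand): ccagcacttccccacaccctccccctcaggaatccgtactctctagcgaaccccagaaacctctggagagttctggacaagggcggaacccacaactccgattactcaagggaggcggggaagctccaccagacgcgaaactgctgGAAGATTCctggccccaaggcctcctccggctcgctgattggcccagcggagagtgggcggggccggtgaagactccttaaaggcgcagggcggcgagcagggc
Zfand2a (chr5:139484492-139484741, - strand): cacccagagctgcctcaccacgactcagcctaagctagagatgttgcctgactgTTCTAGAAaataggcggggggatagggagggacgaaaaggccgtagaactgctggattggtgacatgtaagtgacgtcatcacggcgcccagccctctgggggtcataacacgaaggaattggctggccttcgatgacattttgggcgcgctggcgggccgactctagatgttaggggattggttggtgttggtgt
Dnajb1 (chr8:83607925-83608174, + strand): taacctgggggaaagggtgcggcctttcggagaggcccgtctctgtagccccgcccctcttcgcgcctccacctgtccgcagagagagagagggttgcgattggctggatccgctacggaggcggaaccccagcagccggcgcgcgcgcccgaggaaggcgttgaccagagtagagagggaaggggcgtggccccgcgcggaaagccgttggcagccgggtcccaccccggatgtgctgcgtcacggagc
The Hspa1a and Hspa1b windows were the same at 247 of 250 bases and hold the pair at the same place, beginning 104 bases before the start. In Zfand2a the pair begins 196 bases before the start, and the Dnajb1 window holds none. Such a pair is common: among promoters of 300 bases (250 before to 50 after the start, both strands), it was in 5 of the 45 higher genes with a RefSeq entry (11.1%), in 10.9% of the 46 lower genes and in 11.8% of the 11359 tested genes with an entry. The 3-unit form GAANNTTCNNGAA was in 0 of the 45 higher genes, in 1 of the 46 lower genes (2.17%) and in 0.467% of all. These are matches of letters and say nothing of binding.

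Straight after light, 170 of 18193 tested genes (0.934%) differed between lit and dark LiTEC cells, 73 higher (0.401%) and 97 lower (0.533%), by edgeR's quasi-likelihood test at a Benjamini-Hochberg adjusted p below 0.05. Among called genes the falls were the larger changes: the median log2 fold change was −0.75 among the lower and 0.50 among the higher. Low levels were more frequent among the lower genes: 31 of the 97 had a dark mean below 5 CPM, while 8 of the 73 higher genes had a lit mean below 5 CPM. The part of level in the size of the falls was not tested. The 3 lit and 3 dark values did not overlap for 155 of the 170, against 11.6% of all tested genes. All 170 had the same direction in batch 1 and in batch 2 alone, though batch 2 alone called 3 genes. The 170 were called from these same 6 libraries, so both counts follow largely from the choice and are no separate support. With the replicate numbers as a block, 290 genes passed (1.59%), 145 higher and 145 lower, and all 170 were among them. The number of calls rested on single libraries, being 40, 128 and 70 without lit replicates 1, 2 and 3 and 85, 69 and 55 without dark replicates 1, 2 and 3. In these bulk samples, a change in every cell and a change in the share of cells with the RNA cannot be told apart. In 23 genes, 9 higher and 14 lower, the call held without each of these 6 libraries in turn, and the genes named below with 6 of 6 are among these. The number given as "k of 6" beside a gene is how many of those 6 fits called it.

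Inducible chaperone genes were higher in lit LiTEC cells. Hspa1a, which encodes an inducible Hsp70 (chromosome 17, 34969190 to 34972156, minus strand, 1 exon), had 6.71, 2.44 and 6.30 CPM in lit LiTEC replicates 1 to 3, against 0.839, 0.310 and 0.991 CPM in dark LiTEC replicates 1 to 3. These came from 119, 27 and 100 reads in lit cells and 13, 5 and 15 reads in dark cells. Every lit value lay above every dark one, and replicate 2 was the lowest of both groups. The level was 7.40-fold higher, a log2 fold change of 2.89 ± 0.60 (SE, n = 3 each, edgeR adjusted p = 0.0123; 2 of 6). It was not called without any one of lit replicates 1 and 3 and dark replicates 1 and 2 (adjusted p = 0.0759, 0.0739, 0.0722 and 0.0810), although the log2 fold change stayed between 2.59 and 3.28.

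Hspa1b, its near-identical neighbour (chromosome 17, 34956436 to 34959238, minus strand), had 27.4, 15.2 and 24.4 CPM in lit LiTEC cells and 8.13, 5.95 and 6.67 CPM in dark LiTEC cells. Again the groups did not overlap, and replicate 2 was the lowest. The log2 fold change was 1.72 ± 0.43 (edgeR adjusted p = 0.0406). The call was lost without any one of the 6 libraries (0 of 6, adjusted p from 0.0569 to 0.282), and reads of the copies may have been split between them, so both values are uncertain.

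Dnajb1, the Hsp40 cochaperone that works with Hsp70 (chromosome 8, 83608193 to 83612653, plus strand), had the lowest adjusted p of the higher genes. Its level was 97.0, 87.2 and 94.1 CPM in lit LiTEC cells and 68.1, 52.9 and 59.7 CPM in dark LiTEC cells, a log2 fold change of 0.63 ± 0.09 (edgeR adjusted p = 0.000434; 6 of 6). Hsf2, another heat shock factor, had 82.7, 76.5 and 82.3 CPM in lit LiTEC cells and 62.4, 66.0 and 73.7 CPM in dark LiTEC cells. Its rise was small, 0.26 ± 0.06 (edgeR adjusted p = 0.0152; 2 of 6), and was lost without any one of lit replicates 1 and 3 and dark replicates 1 and 2 (adjusted p = 0.163, 0.0760, 0.137 and 0.0887).

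Of the 25 genes of the heat shock list, all tested, these 4 were called higher and none lower. That compares with 0.401% called higher and 0.533% called lower over all tested genes. This list and those below were chosen with earlier results of these data known. Their counts beside the share of all genes are a description and no separate support. In the list 9 had non-overlapping groups with the lit values higher (5.97% of all tested genes). The median log2 fold change was 0.14 in the list and 0.00 over all tested genes. Leaving out any one of lit replicates 1 and 3 and dark replicates 1 and 2 brought the number called to 1, and Dnajb1 was that gene. Hsph1, an Hsp110 chaperone, had 308, 245 and 287 CPM in lit LiTEC cells and 206, 185 and 215 CPM in dark LiTEC cells. Its log2 fold change of 0.47 ± 0.12 missed the threshold (edgeR adjusted p = 0.0576) and passed with the replicate block (adjusted p = 4.63e-05). The abundant chaperone genes Hsp90aa1 (0.17 ± 0.05, edgeR adjusted p = 0.152) and Hspa8 (0.06 ± 0.10, adjusted p = 0.895) were not called, nor was Hsf1 itself (0.20 ± 0.08, adjusted p = 0.375). Outside the list, and chosen after its values were seen, Zfand2a, an arsenite- and heat-inducible gene of the proteasome pathway, rose by 0.47 ± 0.10 (edgeR adjusted p = 0.0163; 2 of 6), with 25.4, 19.98 and 21.5 CPM in lit LiTEC cells and 16.3, 14.1 and 17.9 CPM in dark LiTEC cells. Its call was lost without any one of lit replicates 1 and 3 and dark replicates 1 and 2 (adjusted p = 0.167, 0.0689, 0.118 and 0.122).

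Of the 37 tested immediate early genes, 3 rose and none fell: Gadd45b, Sertad1 and Arc. Over all tested genes 0.401% were called higher and 0.533% lower. Gadd45b, a stress-induced partner of p38 and JNK signalling (chromosome 10, 80930073 to 80932204), had 21.8, 15.6 and 16.3 CPM in lit LiTEC cells and 10.3, 9.42 and 8.46 CPM in dark LiTEC cells. The lowest lit library lay above the highest dark one, and the log2 fold change was 0.93 ± 0.20 (edgeR adjusted p = 0.0147; 3 of 6). It was not called without lit replicate 1 or dark replicate 2 or 3 (adjusted p = 0.190, 0.0579 and 0.0774). Sertad1, a coregulator of E2F transcription, had 20.4, 15.1 and 16.4 CPM in lit LiTEC cells and 12.9, 8.12 and 10.2 CPM in dark LiTEC cells (0.74 ± 0.17, edgeR adjusted p = 0.0185; 2 of 6). Its call was lost without any one of lit replicates 1 and 3 and dark replicates 2 and 3 (adjusted p = 0.167, 0.0721, 0.150 and 0.0663). Arc, best known as a synaptic immediate early gene, rose by 0.42 ± 0.10 (edgeR adjusted p = 0.0220; 1 of 6), and its groups overlapped: 35.1, 28.8 and 26.0 CPM in lit LiTEC cells and 31.4, 17.9 and 18.8 CPM in dark LiTEC cells. In Arc the call held only without dark replicate 1 (adjusted p = 0.00579), and ran from 0.0571 to 0.189 without each of the others.

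The list's median log2 fold change was 0.29, with 31 of 37 members above 0, and 7 members had non-overlapping groups with the lit values higher (5.97% of all tested genes) and 1 with the lit values lower (5.6%). None of its members was called without lit replicate 1 or dark replicate 2 or 3, and 1 was called without lit replicate 3. Fos and Egr1, the classic targets of the serum response factor, were low and not called: Fos had 5.30, 1.54 and 2.65 CPM in lit LiTEC cells and 5.42, 0.744 and 1.65 CPM in dark LiTEC cells (0.41 ± 0.39, edgeR adjusted p = 0.792). In Egr1 the difference was 0.36 ± 0.38 (adjusted p = 0.811). Ier2 had 122, 86.9 and 97.6 CPM in lit LiTEC cells and 83.8, 67.6 and 80.7 CPM in dark LiTEC cells, and did not pass (0.40 ± 0.14, edgeR adjusted p = 0.215; adjusted p = 0.0231 with the replicate block). Junb, a partner of Fos, was at 0.31 ± 0.12 (adjusted p = 0.269).

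**Figure D1:**
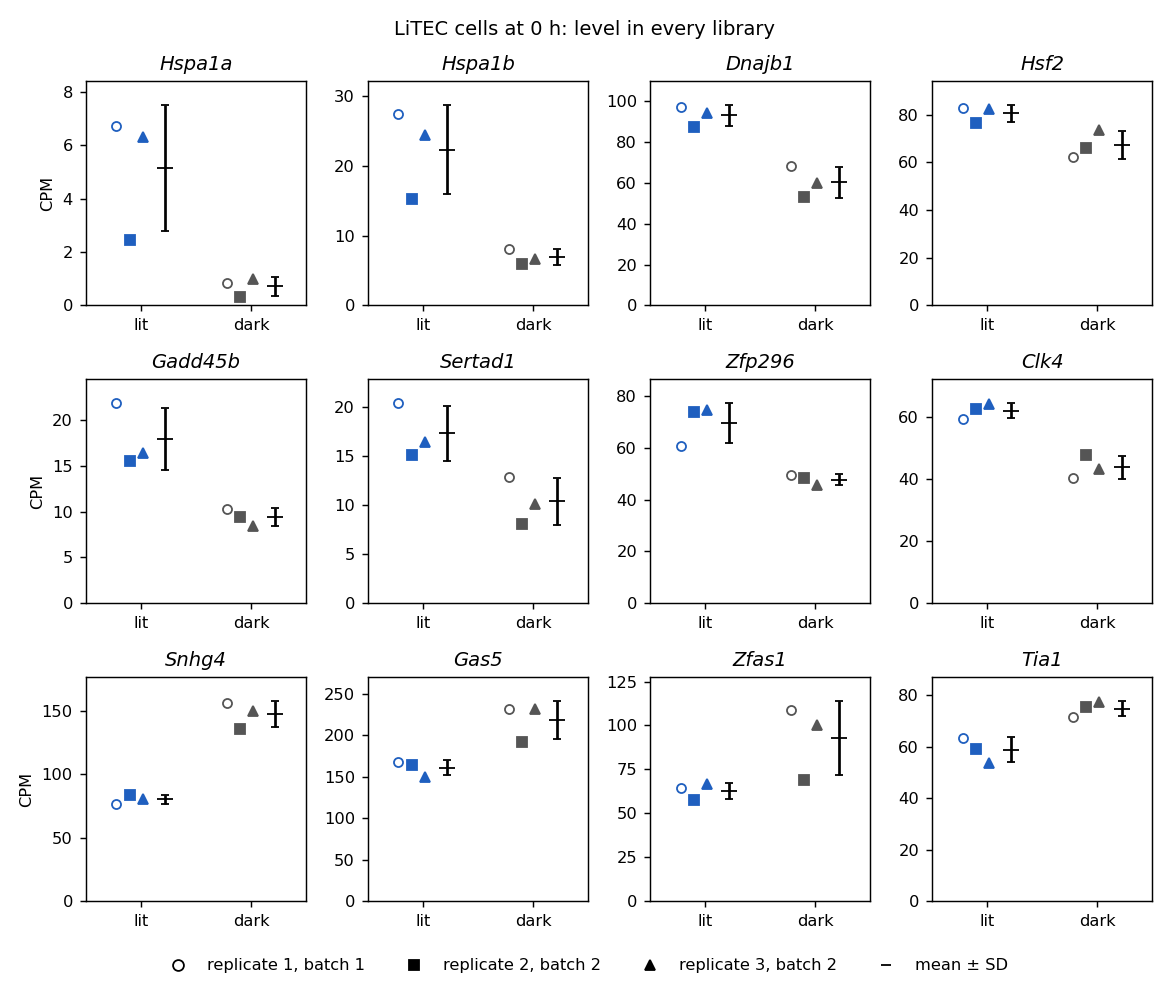
Level of 12 genes in CPM (y axis, from 0) in each lit (blue, left) and dark (grey, right) LiTEC library at 0 h, with the mean and SD beside the points (n = 3 each) and the replicate as the marker shape. In the 8 higher genes of the upper rows every lit point lies above every dark one, and in Snhg4, Gas5, Zfas1 and Tia1 every lit point lies below.

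Zfp296, a zinc finger gene of the naive pluripotency list that takes part in reprogramming (chromosome 7, 19577287 to 19580656), had 60.7, 73.5 and 74.3 CPM in lit LiTEC cells and 49.4, 48.2 and 45.5 CPM in dark LiTEC cells. Its log2 fold change was 0.54 ± 0.09 (edgeR adjusted p = 0.00191; 6 of 6), and it was the 1 called gene of the 25 in that list, whose median was −0.03. Of all tested genes 0.401% were called higher. Snai1, a repressor that drives epithelial to mesenchymal change and was chosen after its values were seen, had 4.00, 5.33 and 4.16 CPM in lit LiTEC cells and 1.098, 3.29 and 2.58 CPM in dark LiTEC cells (0.98 ± 0.24, edgeR adjusted p = 0.0333; 2 of 6). It stayed called without lit replicate 3 or dark replicate 2 (adjusted p = 0.0473 and 0.0266), and ran from 0.0928 to 0.243 without each of the others. Irf1, the interferon regulatory factor, rose by 0.42 ± 0.10 (edgeR adjusted p = 0.0274; 2 of 6), with overlapping groups of 27.1, 24.8 and 25.4 CPM in lit LiTEC cells and 25.5, 17.0 and 16.2 CPM in dark LiTEC cells. It remained called without lit replicate 1 or dark replicate 1 (adjusted p = 0.0365 and 0.0240) and reached 0.174 without lit replicate 3.

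In the NF-kB list 2 of 17 tested genes rose and none fell, against 0.401% of all tested genes called higher, and 1 was called without lit replicate 1. Ripk4, a kinase of epithelial differentiation that can act on NF-kB and Wnt signalling, had 8.23, 6.87 and 7.25 CPM in lit LiTEC cells and 4.97, 4.71 and 4.16 CPM in dark LiTEC cells (0.69 ± 0.12, edgeR adjusted p = 0.00191; 6 of 6). Nfkbid, an atypical IkB protein of the nucleus, had 8.85, 7.96 and 8.76 CPM in lit LiTEC cells and 4.52, 5.15 and 6.14 CPM in dark LiTEC cells (0.70 ± 0.16, edgeR adjusted p = 0.0232; 2 of 6). The second call was lost without any one of lit replicates 1 and 3 and dark replicates 1 and 2 (adjusted p = 0.161, 0.0931, 0.168 and 0.106). Slc30a1, the plasma membrane zinc exporter, was the 1 gene of 8 in the zinc list to pass, against the same 0.401% (0.57 ± 0.13, edgeR adjusted p = 0.0202; 2 of 6). It had 40.4, 37.9 and 43.2 CPM in lit LiTEC cells and 25.6, 26.5 and 29.7 CPM in dark LiTEC cells, and stayed called without lit replicate 2 or dark replicate 3 (adjusted p = 0.0312 and 0.0455; up to 0.131 without each of the others). Metallothionein Mt2 of that list was not called (0.18 ± 0.13, adjusted p = 0.690).

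Clk4, a kinase that phosphorylates SR splicing factors and whose own transcript is kept partly unspliced in the nucleus (chromosome 11, 51261730 to 51281766), had 59.4, 62.6 and 64.3 CPM in lit LiTEC cells and 40.3, 47.9 and 43.3 CPM in dark LiTEC cells. The groups were clearly apart, with a log2 fold change of 0.50 ± 0.08 (edgeR adjusted p = 0.000438; 6 of 6). Swt1, a nuclear endoribonuclease of mRNA quality control known from yeast, had 52.7, 49.0 and 56.4 CPM in lit LiTEC cells and 35.8, 34.3 and 38.1 CPM in dark LiTEC cells (0.55 ± 0.09, edgeR adjusted p = 0.00191; 6 of 6). Tia1, an RNA-binding protein of stress granules, fell to 63.5, 59.3 and 53.9 CPM in lit LiTEC cells, against 71.7, 75.6 and 77.5 CPM in dark LiTEC cells (−0.35 ± 0.08, edgeR adjusted p = 0.0147; 3 of 6). That call was lost without lit replicate 3 or dark replicate 2 or 3 (adjusted p = 0.118, 0.0739 and 0.0877).

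Clk4, higher, and Tia1, lower, were the called genes among 20 temperature-responsive RNA-binding proteins and CLK kinases, a list with a median log2 fold change of 0.01. The shares of all tested genes called higher and lower were 0.401% and 0.533%. Cirbp, the cold-inducible RNA-binding protein, had 22.9, 14.8 and 14.6 CPM in lit LiTEC cells and 24.9, 25.3 and 20.6 CPM in dark LiTEC cells. Its groups overlapped, and it missed the threshold (−0.44 ± 0.12, edgeR adjusted p = 0.0793; adjusted p = 0.0483 with the replicate block). Luc7l2, a factor associated with the U1 snRNP, fell to 264, 247 and 253 CPM in lit LiTEC cells, against 311, 318 and 315 CPM in dark LiTEC cells (−0.31 ± 0.06, edgeR adjusted p = 0.00717; 6 of 6). Nktr, a cyclophilin with an RS-rich tail, fell by 0.37 on the log2 scale (SE 0.07, edgeR adjusted p = 0.00811; 3 of 6, up to 0.0759 without lit replicate 1), to 148, 175 and 156 CPM in lit LiTEC cells, against 196, 219 and 202 CPM in dark LiTEC cells. Picked out after the values were seen, Rbm39, Rbmx and the minor spliceosome gene Rnpc3 were also lower (−0.29 ± 0.06, −0.43 ± 0.10 and −0.37 ± 0.08), while Jmjd6, a lysyl hydroxylase of splicing factors, was higher (0.33 ± 0.08). Each of the 4 lost its call without lit replicate 1 (adjusted p = 0.124, 0.124, 0.159 and 0.167).

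The most significant fall was that of a snoRNA host. Snhg4 had 76.7, 83.7 and 80.7 CPM in lit LiTEC cells and 156, 136 and 150 CPM in dark LiTEC cells, so that dark cells held 1.84 times as much (−0.88 ± 0.10, edgeR adjusted p = 4.38e-06; 6 of 6). Gas5, a host of 10 annotated snoRNAs (chromosome 1, 161034422 to 161038539, plus strand), had 168, 165 and 150 CPM in lit LiTEC cells and 232, 192 and 232 CPM in dark LiTEC cells (−0.44 ± 0.07, edgeR adjusted p = 0.000434; 6 of 6). In both genes the highest lit library lay below the lowest dark one. Snhg1, a host of 8 (chromosome 19, 8723475 to 8726443), had 108, 109 and 101.8 CPM in lit LiTEC cells and 141, 125 and 153 CPM in dark LiTEC cells (−0.40 ± 0.07, edgeR adjusted p = 0.00411; 5 of 6, 0.0541 without dark replicate 3).

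Snhg5 fell too, with 58.6, 62.8 and 64.2 CPM in lit LiTEC cells and 82.1, 77.4 and 94.3 CPM in dark LiTEC cells (−0.45 ± 0.09, edgeR adjusted p = 0.00699; 5 of 6, 0.0611 without dark replicate 3). Dancr, a non-coding RNA named for its role in blocking differentiation (chromosome 5, 74093060 to 74095406), had 18.7, 20.3 and 17.3 CPM in lit LiTEC cells and 31.0, 24.4 and 34.7 CPM in dark LiTEC cells (−0.68 ± 0.14, edgeR adjusted p = 0.0118; 3 of 6). Zfas1 (chromosome 2, 167062934 to 167065862), which lies beside the Znfx1 promoter, had 64.2, 57.7 and 66.6 CPM in lit LiTEC cells and 109, 69.0 and 100 CPM in dark LiTEC cells (−0.56 ± 0.11, edgeR adjusted p = 0.00811; 3 of 6). Dancr and Zfas1 were both not called without lit replicate 1 (adjusted p = 0.0895 and 0.0561) or dark replicate 3 (0.0971 and 0.0681), Dancr also without lit replicate 3 (0.0740) and Zfas1 without dark replicate 1 (0.0843). In dark replicate 2 all of Snhg1, Snhg5, Dancr and Zfas1 were lower than in the other dark libraries.

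Of 23 tested members of the snoRNA host list 6 were called lower and none higher: Snhg4, Gas5, Snhg1, Snhg5, Dancr and Snhg6. Over all tested genes, the share to set beside this and the host counts below, 0.533% were called lower and 0.401% higher. The list's median log2 fold change was −0.26, 17 of 23 members were below 0, and 9 had non-overlapping groups with the lit values lower (5.6% of all tested genes) and 1 with the lit values higher (5.97%). Snhg6 had the highest adjusted p of the 6 (−0.51 ± 0.13, edgeR adjusted p = 0.0425), with overlapping groups and a call that held only without dark replicate 2 (adjusted p = 0.00227; from 0.0820 to 0.285 without each of the others). Snhg8 (−0.45 ± 0.16, edgeR adjusted p = 0.231) and Snhg3 (−0.33 ± 0.12, adjusted p = 0.214; adjusted p = 0.0224 with the replicate block) were not called. The number called was 4 without lit replicate 1 and 2 without dark replicate 3. By annotation alone, 32 tested non-coding genes enclose a snoRNA on the same strand, and 6 of them were lower (18.8%), with Zfas1 among them. Snhg4 is not among the 32, because its gene ID was not found in the annotation. Among 224 protein-coding hosts 3 were lower (1.34%), and their median log2 fold change was −0.01. One of these was Rabggtb, a subunit of the enzyme that attaches lipid to Rab proteins, which was chosen after its values were seen and fell by 0.27 (SE 0.06, edgeR adjusted p = 0.0249; 1 of 6, up to 0.210 without dark replicate 1).

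Ribosomal protein mRNAs, which like many of these hosts can begin with a run of pyrimidines, were not called. None of the 46 cytosolic ribosomal protein genes was called, by edgeR or with the replicate block, and their median log2 fold change was 0.02. The 18 translation factors of the same kind gave 0 calls and a median of 0.02. A run of C followed by at least 5 pyrimidines within 10 bases of the RefSeq start was in 11 of the 23 non-coding hosts with a promoter entry (47.8%) and in 19.9% of all tested genes with one. Among called genes with an entry, it was in 11 of the 46 lower (23.9%) and in 4 of the 45 higher (8.89%).

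Among the called non-coding genes outside the host list, Neat1, Tsix and Platr4 were picked out after their values were seen. Neat1, the scaffold of paraspeckles (chromosome 19, 5824708 to 5845478), had 83.7, 62.2 and 74.4 CPM in lit LiTEC cells and 119, 101 and 105 CPM in dark LiTEC cells (−0.56 ± 0.12, edgeR adjusted p = 0.0147; 2 of 6). Tsix, the antisense partner of Xist (chromosome X, 103431517 to 103484957), had 40.7, 41.2 and 42.5 CPM in lit LiTEC cells and 62.0, 60.3 and 58.9 CPM in dark LiTEC cells (−0.54 ± 0.13, edgeR adjusted p = 0.0231; 3 of 6). Platr4, a transcript associated with pluripotency, had 23.6, 23.3 and 25.2 CPM in lit LiTEC cells and 31.4, 37.1 and 34.9 CPM in dark LiTEC cells (−0.52 ± 0.11, edgeR adjusted p = 0.0162; 2 of 6). All 3 kept their groups apart, and all 3 lost their call without lit replicate 1 or dark replicate 2 or 3, with adjusted p up to 0.245. Trp53cor1, a non-coding RNA of the p53 response, fell by 0.78 on the log2 scale (SE 0.17, edgeR adjusted p = 0.0163; 2 of 6, up to 0.106 without dark replicate 2), with overlapping groups, and was the 1 called gene of the 22 p53 targets, whose median was 0.07. Of all tested genes 0.533% were called lower. The strand setting of the counting is not given in the sources used here, so Tsix cannot be told from Xist, nor other antisense genes from their partners. The same holds where genes overlap on opposite strands, as do Gas5 and Zbtb37, Zfas1 and Znfx1, Dancr and Gm43416, Clk4 and BC049762, and Zfp296 and Gemin7.

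The annotated classes of the called genes are given as a description. Protein-coding genes made up 75.4% of tested genes, 80.8% of those higher (59) and 42.3% of those lower (41). Of 565 lincRNA genes 9 were lower and 0 higher (15 lower and 2 higher with the replicate block). Of 389 antisense genes 6 were lower and 0 higher, and of 241 processed transcripts 9 and 1. The lower genes made up 1.59%, 1.54% and 3.73% of these classes, against 0.533% of all tested genes. Unspliced loci annotated as TEC (to be experimentally tested) gave 18 lower (1.7%) and 11 higher (1.04%) of 1061, against 0.401% of all tested genes called higher. Without lit replicate 1, when 24 genes were lower and 16 higher in all, 12 protein-coding, 0 lincRNA, 1 antisense and 5 processed transcript genes were lower. The median log2 fold change was −0.13 in lincRNA, −0.13 in antisense and −0.17 in processed transcripts, against 0.01 in protein-coding genes.

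Per 100 protein-coding counts, long non-coding RNA (Gm26917 and Gm42418 left out) gave 1.6, 1.44 and 1.53 counts in lit LiTEC libraries and 1.74, 1.68 and 1.64 in dark LiTEC libraries. The groups did not overlap, and the exact two-sided permutation p was 0.1, the smallest that 3 against 3 allows. Leaving out the 170 called genes gave 1.53, 1.37 and 1.47 in lit LiTEC libraries and 1.63, 1.6 and 1.53 in dark LiTEC libraries. In WT cells the means were 1.73 ± 0.13 lit and 1.69 ± 0.10 dark (SD, n = 3 each, exact permutation p = 0.9). The share of Gm26917 was highest in lit replicates 1 and 3, and its part in this ratio was not tested. Without Gm26917 and Gm42418 in the fit 171 genes were called.

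**Figure D2:**
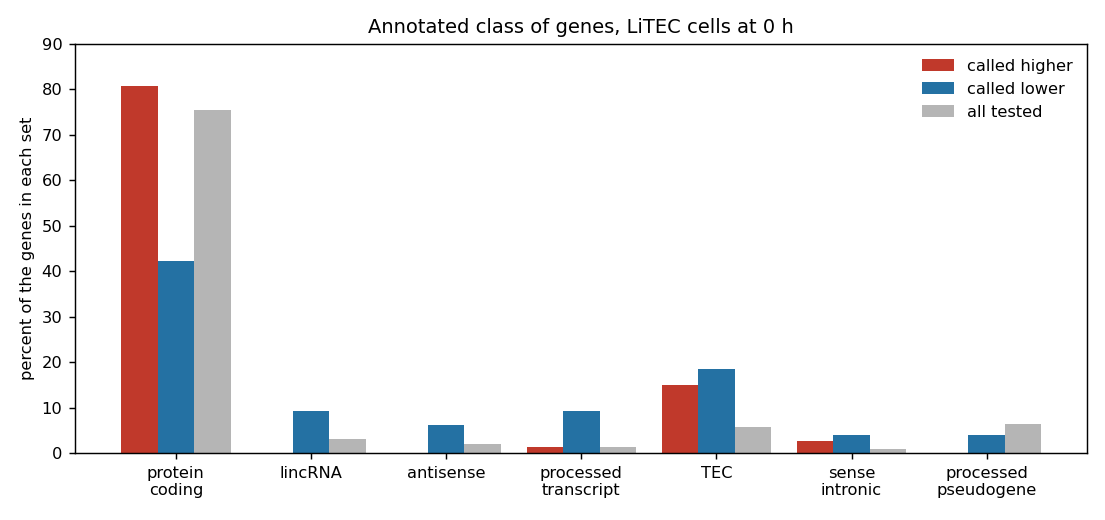
Share of each annotated class (y axis, percent) among the 73 genes called higher (red), the 97 called lower (blue) and all 18193 tested genes (grey). Protein-coding genes are 80.8% of those higher and 42.3% of those lower, and lincRNA is absent among those higher.

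Further protein-coding genes were called without each of the 6 libraries. Among the higher were Cdkn2aip, a binding partner of the ARF tumour suppressor with 28.9, 29.9 and 30.6 CPM in lit LiTEC cells and 19.6, 16.2 and 22.4 CPM in dark LiTEC cells (0.62 ± 0.10, edgeR adjusted p = 0.00139), and Ahsa2, a relative of the Hsp90 activator Aha1 (0.42 ± 0.07, adjusted p = 0.00191). Among the lower were the zinc finger genes Zfp941 (−0.85 ± 0.13, adjusted p = 0.000434) and Zfp386 (−0.63 ± 0.11, adjusted p = 0.00191). Alkbh1, a demethylase of tRNA and DNA, had 78.8, 72.1 and 78.9 CPM in lit LiTEC cells and 94.7, 98.5 and 101.6 CPM in dark LiTEC cells (−0.36 ± 0.06, edgeR adjusted p = 0.00191). Slc9a8, a sodium/proton exchanger of the Golgi, fell to 32.1, 30.2 and 31.1 CPM in lit LiTEC cells, against 43.8, 43.8 and 39.0 CPM in dark LiTEC cells (−0.44 ± 0.08, edgeR adjusted p = 0.00489). In each of these 6 genes the lit and dark values did not overlap.

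The remaining calls that held without each library were D10Wsu102e and loci named by number. D10Wsu102e, a protein-coding gene on chromosome 10, had 474, 481 and 518 CPM in lit LiTEC cells and 664, 696 and 656 CPM in dark LiTEC cells (−0.45 ± 0.08, edgeR adjusted p = 0.00571). The 2 higher loci, each 1 exon inside another gene on the same strand, were Gm36527, within Rnf2 (0.67 ± 0.12, adjusted p = 0.00342), and Gm38190, within Tiprl (0.74 ± 0.14, adjusted p = 0.00677). Gm36527 had 18.4, 16.3 and 20.2 CPM in lit LiTEC cells and 11.4, 12.3 and 10.97 CPM in dark LiTEC cells, so its groups were apart. Gm15541, antisense to the myelin gene Prx, fell to 0.958, 0.904 and 0.756 CPM in lit LiTEC cells, against 2.78, 2.29 and 2.31 CPM in dark LiTEC cells (−1.49 ± 0.26, edgeR adjusted p = 0.00191). Gm37310, a TEC locus within Slc1a3, fell to 1.75, 1.18 and 0.441 CPM in lit LiTEC cells, against 3.62, 3.53 and 2.64 CPM in dark LiTEC cells (−1.58 ± 0.27, adjusted p = 0.00191). Whether reads of loci inside another gene on the same strand came from unspliced RNA of that gene was not tested. This applies to Gm36527, Gm38190 and Gm37310 and to such loci of the TEC class. Of the 97 lower genes 31 had a dark mean below 5 CPM, and of the 73 higher genes 8 had a lit mean below 5 CPM.

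Most other programmes gave no call. By edgeR, 0 genes passed among 32 Mediator subunits (median log2 fold change 0.01), 30 genes of RNA polymerase II, pausing and elongation (0.03), 20 of the unfolded protein response (0.08), 21 of the ATF4 response (−0.04), 21 NRF2 targets (0.02), 16 of the STAT3 and LIF pathway (0.09) and 13 mitochondrially encoded genes (−0.12). Nor was any member called in the lists of Wnt, Nodal, Notch, FGF-ERK, circadian, cholesterol, hypoxia, cell cycle, histone, nonsense-mediated decay and formative pluripotency genes. The replicate block called 1 histone gene and 1 Notch gene lower and 2 genes of the G1/S list higher. Lists without a call still held members with non-overlapping groups. In the unfolded protein response list 17 of 20 members were above 0. Of these 20, 5 had non-overlapping groups with the lit values higher (5.97% of all tested genes) and 0 with the lit values lower (5.6%). Among the 32 Mediator subunits these counts were 5 and 1. Over all tested genes 1846 had an unadjusted p below 0.05.

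**Figure D3:**
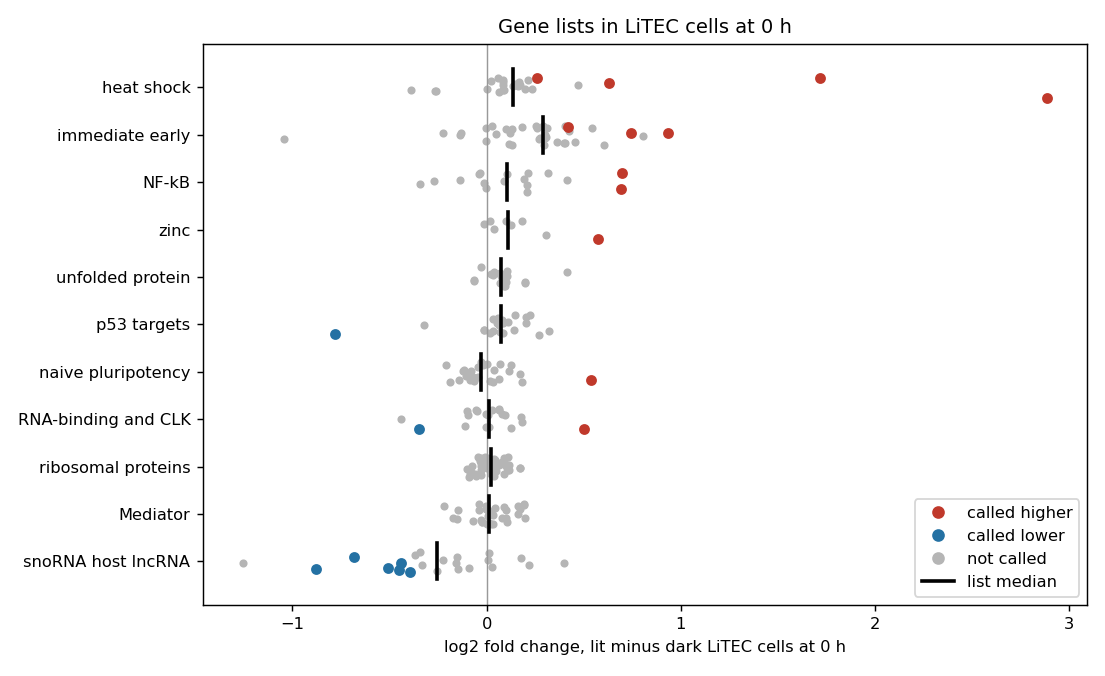
Log2 fold change between lit and dark LiTEC cells at 0 h (x axis) of every tested member of 11 gene lists (rows), with called genes in red (higher) or blue (lower), other members in grey and the list's median as a black bar. The medians run from −0.26 in the snoRNA hosts to 0.29 in the immediate early genes, and Hspa1a lies farthest to the right at 2.89.

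WT cells without LiTEC were given the same light, and the comparison of lit with dark WT cells shares no library with that of LiTEC cells. In WT cells 520 genes were called at 0 h (2.86% of those tested; 870 with the replicate block). Of the 73 genes higher in LiTEC cells 72 had a positive change in WT and 42 were called higher there (1.66% of all tested genes). Of the 97 lower ones 94 had a negative change in WT and 40 were called lower there (1.2% of all tested genes). The 82 shared calls made up 48.2% of the LiTEC list and 15.8% of the WT list, and 0 were called in opposite directions. The other 88 LiTEC genes were not called in WT, but the test of the difference between LiTEC and WT called 0 of these 88, and 27 of them had an unadjusted p below 0.05 in it. The 88 were chosen as called in LiTEC and not in WT cells on the same libraries. Small unadjusted p-values in the difference therefore follow partly from the choice and are no separate support. Ripk4 changed by 0.69 ± 0.12 in LiTEC cells and was at 0.20 ± 0.11 in WT cells, with a 95% interval of the difference from 0.15 to 0.83 and an edgeR adjusted p of 0.680. Irs4, an insulin receptor substrate chosen after its values were seen, lay far from WT on few reads: 18, 2 and 7 in lit LiTEC and 2, 2 and 0 in dark LiTEC libraries, against 27, 6 and 10 in lit WT and 25, 13 and 7 in dark WT libraries. Its difference did not pass either (edgeR adjusted p = 0.680), and its call in LiTEC cells (adjusted p = 0.0450) held in 1 of 6 fits, that without lit replicate 2 (up to 0.420 without lit replicate 1). Gm48232, a TEC locus with the lowest fitted change of the called genes, rested on 1, 0 and 0 reads in lit LiTEC libraries and 22, 4 and 11 reads in dark LiTEC libraries (6 of 6). For Alkbh1 the changes were −0.36 ± 0.06 in LiTEC cells and −0.05 ± 0.06 in WT cells (difference −0.31, 95% interval −0.48 to −0.13, adjusted p = 0.663).

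The heat shock list had a median log2 fold change of 0.14 in LiTEC cells and 0.09 in WT cells, with 4 and 5 of 25 members called higher, and the difference between the cells was called for none of them. Of all tested genes 0.401% were called higher in LiTEC cells and 1.66% in WT cells. Lit LiTEC cells held 6.71, 2.44 and 6.30 CPM of Hspa1a and lit WT cells 69.7, 28.3 and 50.5 CPM, with no overlap, while dark LiTEC cells and dark WT cells lay together between 0.310 and 1.02 CPM. The difference of the light effects was −2.96 on the log2 scale (95% interval −4.94 to −0.99) and did not pass (edgeR adjusted p = 0.680; adjusted p = 0.0611 with the replicate block). Dnajb1 changed by 0.63 ± 0.09 in LiTEC cells and 0.73 ± 0.09 in WT cells, with an interval of the difference from −0.37 to 0.17. In Dancr the light effect was −0.68 ± 0.14 in LiTEC cells and −1.69 ± 0.15 in WT cells (difference 1.01, 95% interval 0.58 to 1.43); it missed the threshold (edgeR adjusted p = 0.0837) and passed with the replicate block (adjusted p = 0.000289).

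The snoRNA host list had a median log2 fold change of −0.26 in LiTEC cells and −0.53 in WT cells, with 6 and 12 of 23 members called lower. Ribosomal protein genes had medians of 0.02 in LiTEC cells and −0.14 in WT cells, with 0 and 3 of 46 called lower. Of all tested genes 0.533% were called lower in LiTEC cells and 1.2% in WT cells. TEC loci had medians of −0.09 in LiTEC cells and 0.18 in WT cells, a difference that was not tested over the class, and genes inside another gene on the same strand had medians of −0.04 and 0.16 in that order of cells. The difference itself was called for 4 genes (0.022% of those tested; 7 with the replicate block), of which Gas5 alone was called in LiTEC cells. For Gas5 the light effect was −0.44 ± 0.07 in LiTEC cells and −0.96 ± 0.07 in WT cells (difference 0.52 ± 0.09, edgeR adjusted p = 0.0163). That call was lost in 6 of the 12 fits that left out 1 of the 12 libraries (lit LiTEC replicates 1 and 2, dark LiTEC replicate 2, lit WT replicate 1, dark WT replicates 1 and 3), with adjusted p up to 0.164.

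**Figure D4:**
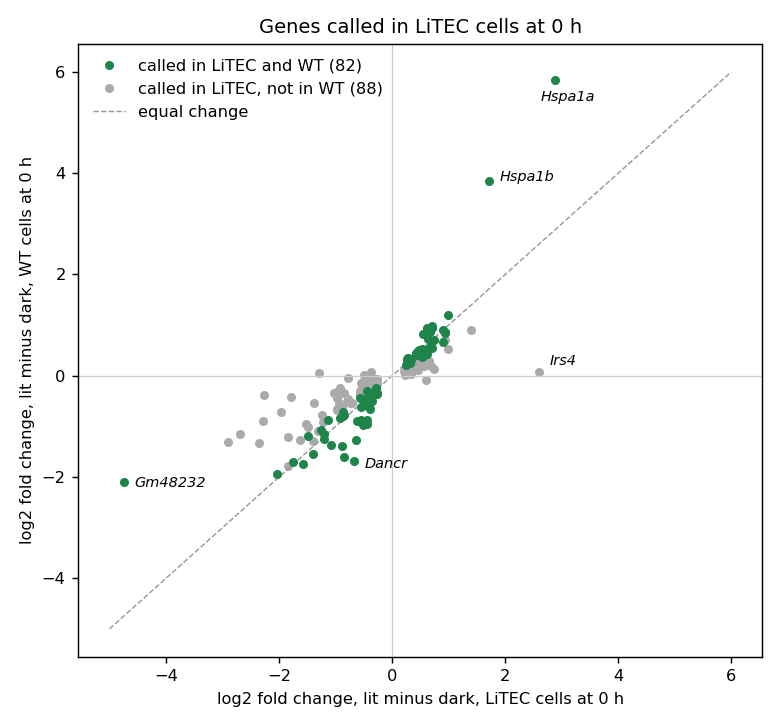
Log2 fold change between lit and dark cells at 0 h of the 170 genes called in LiTEC cells, in LiTEC cells (x axis) and in WT cells (y axis), in green for the 82 also called in WT and in grey for the other 88. Most points lie in the lower left (lower in both cells) or the upper right (higher in both), and Hspa1a and Hspa1b lie far above the dashed line of equal change.

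Other LiTEC libraries, taken 1 and 4 h after light, show what the same genes did later. At 1 h, 21 genes differed between lit and dark LiTEC cells (0.115%; 60 with the replicate block), and at 4 h 2 genes (0.011%; 10 with the replicate block). Of the 73 genes higher at 0 h 58 were above 0 at 1 h and 7 were called (0.0824% of all tested genes were called higher). Of the 97 lower genes 83 were below 0 at 1 h and 3 were called (0.033% of all were called lower). Their median log2 fold changes were 0.14 and −0.14 at 1 h and 0.05 and −0.09 at 4 h, when 0 of the 170 were called.

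Genes called at both 0 and 1 h included Hspa1a, Hspa1b, Dnajb1, Zfp296, Slc30a1, Csrnp2 and Banp, all higher, and Olfr984 and AC160637.1, both lower. Hspa1a had 10.4, 3.38 and 15.4 CPM in lit LiTEC cells at 1 h and 0.685, 0.795 and 0.664 CPM in dark LiTEC cells at 1 h, and its log2 fold change was 2.89 ± 0.60 at 0 h, 3.73 ± 0.54 at 1 h and 0.27 ± 0.72 at 4 h. Replicate 2 was again the lowest lit library. At 1 h the calls of Hspa1a, Dnajb1, Zfp296, Banp and AC160637.1 held without each of the 6 1 h libraries. Those of Hspa1b and Slc30a1 were lost without lit replicate 3 (both 0.0636), Slc30a1 also without dark replicate 3. Olfr984 lost its call in 3 of the 6 fits (without lit replicates 1 and 3 and dark replicate 3 in turn) and Csrnp2 in all 6, with adjusted p up to 0.143 and 0.310. Dnajb1 was at 0.63 ± 0.09 at 0 h and at 1 h and at 0.08 ± 0.09 at 4 h. Banp, a nuclear matrix and promoter-binding protein gene, had 50.3, 48.9 and 59.3 CPM in lit LiTEC cells and 40.7, 44.8 and 42.1 CPM in dark LiTEC cells at 0 h (0.31 ± 0.07, edgeR adjusted p = 0.0301; 3 of 6, lost without lit replicate 3 or dark replicate 1 or 3, adjusted p = 0.312, 0.240 and 0.0877). At 1 h its change was 0.83 ± 0.07, but the test of 1 h against 0 h did not pass (0.52 ± 0.11, edgeR adjusted p = 0.0629).

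The snoRNA hosts were not called at 1 h. Snhg4 was at −0.88 ± 0.10 at 0 h, −0.22 ± 0.10 at 1 h and −0.15 ± 0.10 at 4 h, and Gas5 at −0.44 ± 0.07, −0.10 ± 0.06 and −0.02 ± 0.06. In neither did the test of 1 h against 0 h pass (edgeR adjusted p = 0.0629 and 0.395). In the host list 0 of 23 were called at 1 h and at 4 h, and its median was −0.08 at both times. Gadd45b was at 0.93 ± 0.20 at 0 h and −0.07 ± 0.21 at 1 h (difference −1.01 ± 0.29, edgeR adjusted p = 0.427). The test of 1 h against 0 h called 2 genes in all (0.011%; 8 with the replicate block), and neither was called at 0 h.

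**Figure D5:**
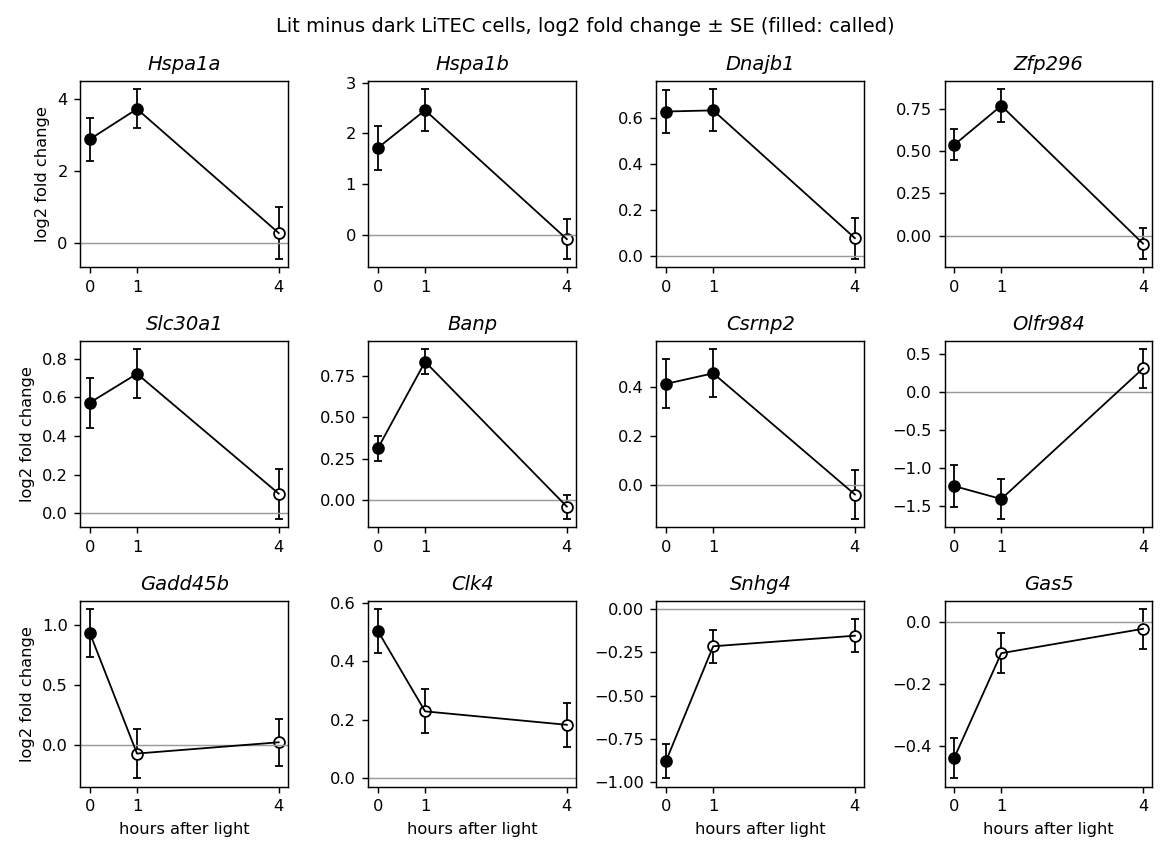
Log2 fold change ± SE between lit and dark LiTEC cells (y axis) at 0, 1 and 4 h after light (x axis) for 12 genes, each point from 3 lit and 3 dark libraries, filled where called. Hspa1a, Hspa1b, Dnajb1, Zfp296, Slc30a1, Banp, Csrnp2 and Olfr984 are filled at 0 and 1 h, Gadd45b, Clk4, Snhg4 and Gas5 at 0 h, and none of the 12 at 4 h.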

How the data were processed

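RNA of mouse embryonic stem cells was extracted with TRIzol and made into libraries with a stranded mRNA kit, per the labels' protocols. The authors deposited a table of raw counts per gene for 36 libraries (54842 genes, 12 groups of 3). FastQC, featureCounts and the builds mm10 and GRCm38 are named in the submitters' processing notes. Neither the aligner nor the annotation or strand setting is given in these sources.

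Counts were fitted as deposited with edgeR 4.0.16 (R 4.3.3): filterByExpr with a minimum count of 10 kept 18193 genes, which held 99.88% of the counts in the library with the lowest share, library sizes were scaled by TMM, and glmQLFit took all 36 libraries with a mean per group and a batch term (23 residual degrees of freedom). glmQLFTest gave 6 comparisons, and genes were called at a Benjamini-Hochberg adjusted p below 0.05 over all tested genes. SE is the log2 fold change divided by the square root of F. Levels are in CPM on TMM-scaled library sizes. The fit was tested on simulated data. The 6 libraries held 11132970 to 18767689 counts each, which limits the precision of genes below about 1 CPM.

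Same-numbered replicates deviated together from their group means, with correlations of 0.403 to 0.774 over the pairs of groups compared. Over all 12 groups the correlation was above 0.1 in 197 of 198 pairs and 0.0597 in the other one. For this reason a fit with the replicate number as a block was run. Replicate 1 was batch 1 in every group, so these correlations include the difference between the batches. Pairing beyond the batch was not tested. Other alternatives were no batch term, batch 2 alone, DESeq2 1.42.0, RLE size factors, no filter, a mean of at least 5 CPM, the compared groups alone, leaving out Gm26917 and Gm42418, and leaving out each of 24 libraries.

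Named genes were the 20 higher and 20 lower called genes with the smallest p, the 12 with the largest change each way at 5 CPM or more, provisional names left out unless called in another comparison, called members of 37 lists with up to 4 further members each, and genes called in more than 1 comparison. One gene that meets this rule is not reported here. The groups, lists and members were chosen with earlier results of these data known. Positions and classes are those of GENCODE M21 (GRCm38), in which 18184 of the tested genes were found by gene ID without its version. Promoter sequences are RefSeq's (GRCm38.p6).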

Additional observations from a re-analysis of the deposited data

Results flagged for a closer look

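In 4 genes the light effect at 0 h differed between LiTEC and WT cells by the test of the difference itself, edgeR's quasi-likelihood test on the interaction. Lrrc75aos2, a non-coding gene antisense to Lrrc75a, had 6.48, 7.68 and 7.19 CPM in lit LiTEC cells and 9.36, 8.18 and 9.91 CPM in dark LiTEC cells, and 2.59, 2.74 and 1.73 CPM in lit WT cells and 10.1, 9.30 and 10.8 CPM in dark WT cells. The difference of its light effects was 1.70 ± 0.23 on the log2 scale (edgeR adjusted p = 0.000189), and the call held without each of the 12 libraries. Snord43, a snoRNA inside Rpl3, had a difference of 1.45 ± 0.25 (adjusted p = 0.0134). It was lost in 3 of the 12 fits, those without replicate 2 of dark LiTEC cells, replicate 1 of lit WT cells and replicate 3 of dark WT cells, with adjusted p up to 0.164. Its level was 5.52, 5.42 and 5.80 CPM in lit LiTEC cells and 7.17, 5.58 and 7.27 CPM in dark LiTEC cells, against 1.80, 2.50 and 2.16 CPM in lit WT cells and 7.23, 5.97 and 7.74 CPM in dark WT cells. The libraries were made with an mRNA kit, and whether the reads counted for Snord43 came from the snoRNA or from Rpl3 transcripts was not tested.

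Gas5 had a difference of 0.52 ± 0.09 (edgeR adjusted p = 0.0163) and lost the call in 6 of the 12 fits without 1 library. B830012L14Rik had a difference of −0.82 ± 0.15 (adjusted p = 0.0175), with 32.5, 23.6 and 25.8 CPM in lit LiTEC cells and 37.2, 30.6 and 26.8 CPM in dark LiTEC cells, and 49.4, 41.7 and 36.5 CPM in lit WT cells and 36.3, 24.2 and 23.5 CPM in dark WT cells. Its call held in 5 of the 12 fits, with adjusted p up to 0.141 without dark LiTEC replicate 2.

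In 2 further genes, not called at 0 h in LiTEC cells, the light effect at 1 h differed from that at 0 h. Rsrp1, which encodes an arginine- and serine-rich protein, had 126, 122 and 120 CPM in lit and 131, 120 and 117 CPM in dark LiTEC cells at 0 h, then 130, 126 and 127 CPM in lit and 84.5, 93.2 and 83.8 CPM in dark LiTEC cells at 1 h. The change between the times was 0.55 ± 0.08 (edgeR adjusted p = 0.002; held in 12 of 12 fits without 1 library). Socs3, a feedback inhibitor of the LIF and STAT3 pathway, had 112, 115 and 105 CPM in lit and 90.6, 117 and 103 CPM in dark LiTEC cells at 0 h, then 162, 123 and 174 CPM in lit and 87.2, 81.6 and 73.0 CPM in dark LiTEC cells at 1 h. Its change was 0.83 ± 0.14 (adjusted p = 0.00816), held in 8 of 12 fits and lost without lit replicate 1 or 3 at 1 h, dark replicate 3 at 1 h or dark replicate 2 at 0 h, with adjusted p up to 0.0895.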

How the results depend on the processing

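Counts of called genes are given in the order lit against dark LiTEC cells at 0 h (170 as reported), the same in WT cells (520), the difference between them (4), LiTEC cells at 1 h (21), at 4 h (2) and 1 h against 0 h (2). With the replicate block they were 290, 870, 7, 60, 10 and 8, and no call was lost in these comparisons. Batch 2 alone gave 3, 141, 0, 7, 1 and 0. Leaving out the batch term gave 73, 277 and, at 1 and 4 h, 10 and 0. Fitting the compared groups alone gave 71 and 178 at 0 h in LiTEC and WT cells. With no expression filter the difference gave 31, 1 h 50, 4 h 36 and 1 h against 0 h 19. DESeq2 gave 45 at 1 h, 8 at 4 h and 9 for 1 h against 0 h, and a mean of at least 5 CPM gave 1 at 4 h. Without 1 library the counts ran from 40 to 128, 233 to 460, 1 to 5, 9 to 35, 0 to 2 and 1 to 5 in the same order. Settings not named for a comparison stayed within 1.5 times its count, and the cause of the moves was not tested. Of 56 called genes named in the text, all 56 stayed called with the block, RLE size factors or without Gm26917 and Gm42418, 55 with DESeq2 (Irs4 was lost, adjusted p = 0.0888), 54 with no filter, 34 with no batch term, 36 in the compared groups alone, 2 in batch 2 alone, 47 of 49 at a mean of at least 5 CPM, and 26, 42 and 33 without lit replicate 1, 2 or 3 and 35, 35 and 27 without dark replicate 1, 2 or 3. None of them changed direction. The light effect at 0 h changed sign in Rsrp1 (0.00 as reported, 0.02 in batch 2 alone and from −0.04 to 0.05 without 1 library) and in Socs3 (−0.02 in batch 2 alone), neither of which was called. Counts of called list members without each library, an alternative chosen after seeing the data, stand beside the lists. Depth limits the low genes: Hspa1a rests on 27 to 119 reads in lit and 5 to 15 reads in dark LiTEC libraries.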

Other observations

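Other protein-coding genes named by their p or fold were called at 0 h in LiTEC cells and described in no list. Spty2d1, which encodes a histone chaperone, had 24.5, 31.4 and 26.5 CPM in lit LiTEC cells and 19.8, 21.7 and 17.8 CPM in dark LiTEC cells (0.46 ± 0.09, edgeR adjusted p = 0.00811; 4 of 6, up to 0.0838 without dark replicate 3). Lcmt2, which takes part in making the modified base wybutosine in tRNA, fell to 5.18, 6.78 and 6.18 CPM in lit LiTEC cells, against 11.4, 8.74 and 13.8 CPM in dark LiTEC cells (−0.92 ± 0.18, adjusted p = 0.00811; 4 of 6, lost without lit replicate 1 or dark replicate 3, adjusted p = 0.124 and 0.0876). Clcn1, the chloride channel of skeletal muscle, fell to 1.41, 3.80 and 2.33 CPM in lit LiTEC cells, against 4.58, 6.08 and 6.01 CPM in dark LiTEC cells (−1.21 ± 0.31, adjusted p = 0.0428; 1 of 6, called only without lit replicate 2 and up to 0.414 without lit replicate 1). In all 3 genes every lit value lay on one side of every dark one.

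Klf10, a TGF-β-inducible repressor picked out after its values were seen, had 80.6, 110 and 112 CPM in lit LiTEC cells and 60.7, 83.6 and 81.3 CPM in dark LiTEC cells. Its groups overlapped across the batches, and within each batch the lit values were higher (0.42 ± 0.11, edgeR adjusted p = 0.0425; 0 of 6, 0.0995 to 0.194).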
